A study of Rattus norvegicus with 12 samples.

Results

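The microRNAs miR-137, miR-138, miR-139 and miR-218 are small RNAs of neurons that have been studied at synapses and in dendrites, and they were followed here in rat hippocampal cultures whose inhibition was blocked for 48 h. Members were chosen by name: every mature microRNA in the small RNA tables of the rat with one of these 4 numbers, whatever its letter suffix, strand or hairpin. This gave 10 of the 548 listed microRNAs: 2 of miR-137, 3 of miR-138, 2 of miR-139 and 3 of miR-218. Of these, 9 passed the filter on low counts and were tested among 437 microRNAs. The tenth, miR-218a-1-3p, is given by its counts.

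The cultures came from the hippocampus of Sprague-Dawley rats at embryonic day 18 and were enriched for neurons. Control cultures received vehicle, and the other group received picrotoxin, a blocker of the chloride channel in GABA-A receptors, from 18 days in vitro for 48 h; RNA was taken at 20 days. PolyA RNA and small RNA were sequenced from the same preparations, which gave 12 libraries in 4 groups of 3 biological replicates. The labels number the replicates 3, 10 and 20 without saying what the numbers mark, and they are called cultures below. RNA was total RNA of whole cultures, so that dendrites and cell bodies were not separated, and dendritic location is background and not a measurement of these data.

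A microRNA guides the Argonaute protein to messenger RNAs, mostly through its seed, the bases 2 to 8 from its 5′ end, and lowers their translation or stability. Each hairpin precursor yields a 5p and a 3p strand, of which usually only 1 is kept in quantity. MiR-138 is enriched at synapses, where it represses Lypla1, a depalmitoylating enzyme, and restrains the growth of dendritic spines. MiR-137 acts on the maturation of neurons and on synaptic proteins, and the host gene of miR-139, Pde2a, encodes a phosphodiesterase of cyclic nucleotides. MiR-218 is encoded inside the genes of the guidance ligands Slit2 and Slit3, and the Slit receptor Robo1 is among its reported targets.

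The mature sequences are shown because they tell which members can share targets and which could share reads. All 10 listed members were matched in RefSeq (assembly GRCr8); the seed is in capitals and the order is 5′ to 3′. The 4 main strands come first, followed by their partners from the same hairpins.
miR-137-3p: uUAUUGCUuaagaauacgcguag
miR-138-5p: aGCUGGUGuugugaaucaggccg
miR-139-5p: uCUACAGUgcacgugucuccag
miR-218a-5p: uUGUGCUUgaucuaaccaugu
miR-137-5p: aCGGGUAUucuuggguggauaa
miR-138-1-3p: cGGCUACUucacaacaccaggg
miR-138-2-3p: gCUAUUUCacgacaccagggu
miR-139-3p: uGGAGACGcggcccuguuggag
miR-218a-2-3p: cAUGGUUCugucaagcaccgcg
miR-218a-1-3p: aAACAUGGuuccgucaagcac

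The 10 seeds all differed, and no other mature rat microRNA of the RefSeq table carried any of them. The 3p strands of the miR-138 hairpins matched at 18 of 20 aligned bases, with an offset that gives them different seeds. Those of the miR-218a hairpins matched at 17 of 18 aligned bases. Reads from such near-identical strands can be split by the counting, a step that the sources used here do not describe, so values of single 3p strands of miR-138 and miR-218a are uncertain in that respect. MiR-218b, in RefSeq the reverse complement of a part of miR-218a-5p, was listed in none of the 6 tables.

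Both miR-138-5p and miR-218a-5p are made from 2 loci, and counts of these strands cannot be assigned to either. The miR-138 hairpins are printed because only their 3p strands tell the loci apart, and the miR-139 hairpin because it is the one whose strands and host mRNA are compared below. Capitals mark the mature strands. Mir138-1 lies at chr8:131178434-131178532 on the plus strand, Mir138-2 at chr19:10680133-10680214 on the minus strand, and Mir139 at chr1:165290859-165290926 on the plus strand of GRCr8.
Mir138-1: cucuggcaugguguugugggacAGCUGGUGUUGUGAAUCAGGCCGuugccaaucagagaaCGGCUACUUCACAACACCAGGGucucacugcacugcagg
Mir138-2: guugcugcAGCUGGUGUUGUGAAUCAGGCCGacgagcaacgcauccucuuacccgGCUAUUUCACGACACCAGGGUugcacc
Mir139: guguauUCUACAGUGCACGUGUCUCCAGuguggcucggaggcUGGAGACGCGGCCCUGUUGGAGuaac

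In the same annotation Mir139 lay within Pde2a and Mir218-2 within Slit3, both in the orientation of the gene. Mir218-1 lay within Slit2, whose strand the table does not give. Mir138-2 lay within Slc12a3, a kidney salt transporter, and Mir137 and Mir138-1 lay within uncharacterised loci.

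Small RNA totals ran from 7730222 to 10051499 counts per library, with 499 to 519 microRNAs listed, and TMM scaling factors from 0.927 to 1.14. Each library listed counts down to 1 or 2, so that an unlisted microRNA was either absent or below that minimum. In the polyA libraries all 5 neuron markers had an FPKM of 1 or more in the authors' table. They summed to between 54653 and 61955 scaled fragments in control and between 43987 and 54729 with picrotoxin, and Tubb3 among them fell (log2 fold change -0.53, limma adjusted p = 0.0164). Excitatory markers summed to between 18183 and 20038 scaled fragments in control and between 13467 and 17020 in picrotoxin cultures, without overlap. Within that list Slc17a6 rose (0.63, limma adjusted p = 0.0268), while the more abundant Slc17a7 (-0.25, limma adjusted p = 0.137) and Neurod6 (-0.79, limma adjusted p = 0.158) set the sum. Inhibitory markers summed to between 11822 and 18001 in control and between 13977 and 23459 with picrotoxin; the log2 fold changes were 0.30 for Gad1, 0.38 for Gad2 and 0.00 for Slc32a1, none past the test. Astrocyte markers summed to between 2683 and 4393 and between 2254 and 3725. Low sums that did not overlap were those of oligodendrocyte markers, 298 to 318 in control and 230 to 271 with picrotoxin, and of dividing cells, 50.9 to 63.3 and 64.7 to 98.2. Microglial markers summed to at most 1.0597 in control and to between 2.09 and 6.80 with picrotoxin, with 1 of 5 at 0 throughout. None of the 5 microglial and 3 endothelial markers reached an FPKM of 1. The part of these shifts in the results below was not tested. In such bulk RNA, fewer cells of a type and less RNA per cell cannot be told apart.

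The members were present at very unequal levels. Together they took between 2.66% and 3.3% of all counts in a library. The 3 of miR-218 took between 2.08% and 2.64%, those of miR-137 between 0.294% and 0.394%, those of miR-138 between 0.212% and 0.285%, and those of miR-139 between 0.0735% and 0.110%. Levels are given as CPM, counts scaled to the TMM-adjusted library size, which have not been calibrated between microRNAs, because the ligation of adapters favours some ends.

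In control cultures miR-218a-5p stood highest, at rank 7 or 8 of the listed microRNAs over the 6 libraries. Its mean was 6.78-fold that of miR-137-3p, which was 1.37-fold that of miR-138-5p, which in turn was 3.08-fold that of miR-139-5p. MiR-139-3p and miR-137-5p came next. Up to that point, neighbours in the order did not overlap among the 3 control libraries. The values of miR-137-5p, miR-138-1-3p, miR-218a-2-3p and miR-138-2-3p, in this order, overlapped from each neighbour to the next. The lowest, miR-218a-1-3p, had 2, 5 and 4 counts in control cultures 3, 10 and 20 and 8, 0 and 0 in the picrotoxin cultures. A count of 0 allows up to 3.69 by the exact Poisson interval, and the counts are too few to compare.

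**Figure D1:**
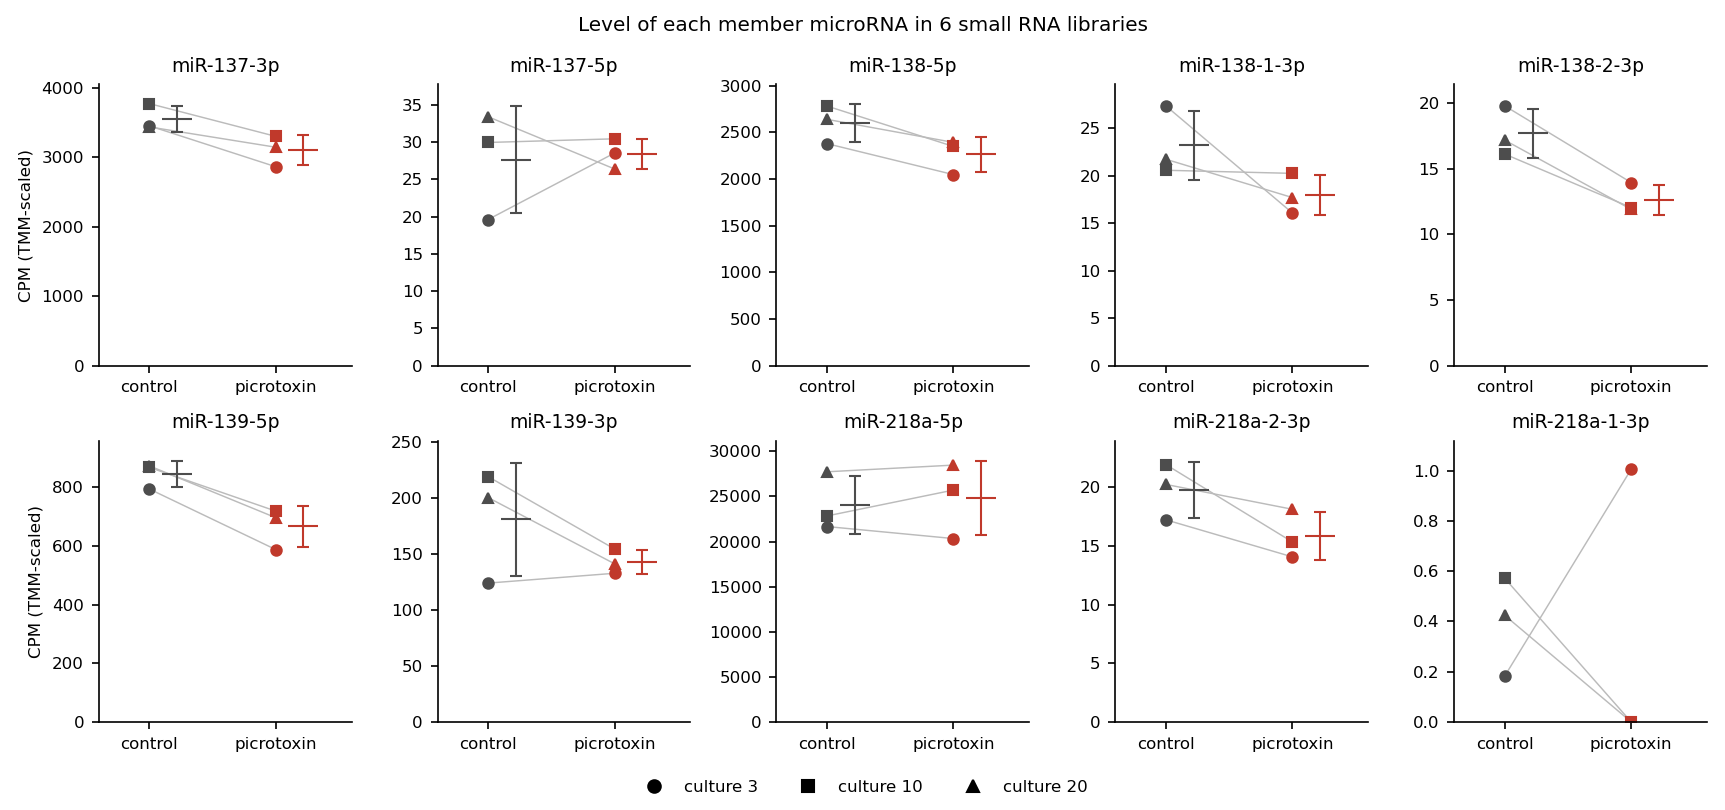
Level of each member in the 6 small RNA libraries, in TMM-scaled CPM on a linear axis from 0 that differs between panels. Points are libraries, lines join libraries of the same culture number, and bars are the mean ± SD (n = 3), left out for miR-218a-1-3p. The picrotoxin values of miR-139-5p, miR-138-2-3p, miR-138-1-3p and miR-137-3p lie below all control values, while those of miR-218a-5p span the same range.

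The first comparison asked which members differ after 48 h of picrotoxin. None of the 9 tested members passed the test by treatment group alone, beside 5 of 437 microRNAs, or 1.14%, that did, all of them higher (1.14% higher and 0.0% lower). The test was edgeR's quasi-likelihood test with Benjamini-Hochberg adjustment over the 437. With picrotoxin the fitted level was lower for 7 members and higher for 2, and their median log2 fold change was -0.32, against -0.01 over all tested microRNAs. At an unadjusted p under 0.05, 4 members were lower and 0 higher, beside 9.61% of all tested microRNAs (3.89% lower and 5.72% higher). DESeq2 called 8 microRNAs higher and 0 lower.

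With the culture number as a block, which compares the libraries of the same number, 1 of the 9 members passed: miR-139-5p fell. In that fit 2.97% of the tested microRNAs passed, 2.52% higher and 0.458% lower. The 4 members lower at an unadjusted p were also those whose groups did not overlap, miR-137-3p, miR-138-1-3p, miR-138-2-3p and miR-139-5p. Groups were separate and lower with picrotoxin in 8.24% of all tested microRNAs, and separate and higher in 9.38%, where no member stood. The level was lower in all 3 cultures for 6 members, these 4 with miR-138-5p and miR-218a-2-3p, and for 19.9% of the tested microRNAs.

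MiR-139-5p, the main strand of the Pde2a hairpin, stood at 795, 868 and 874 CPM in control cultures 3, 10 and 20. With picrotoxin it stood at 588, 719 and 697 CPM. Every picrotoxin library lay below every control library, and the means were 845 ± 44.2 and 668 ± 70.1 CPM (SD, n = 3 each). This was 1.27-fold lower, a log2 fold change of -0.34 ± 0.098 (SE). The edgeR adjusted p was 0.202 by group alone and 0.0298 with the culture block. The per-culture log2 differences were -0.43, -0.27 and -0.33. With the block, leaving out both libraries of a culture leaves 1 residual degree of freedom. The log2 fold change was then -0.40 without culture 10 (edgeR adjusted p = 0.0993) and -0.36 without culture 20 (0.237), where the call was lost, and -0.31 without culture 3, where it passed (1.56e-08).

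Its partner miR-139-3p was less even. Control cultures held 123.9, 219 and 200 CPM, and picrotoxin cultures 133, 154 and 141 CPM. Control culture 3 was the lowest of all 6 libraries, while cultures 10 and 20 were each lower with picrotoxin, by -0.50 in log2. The log2 fold change was -0.34 ± 0.175, with an edgeR adjusted p of 0.541 by group alone and 0.241 with the block. By group alone, the log2 fold change was -0.57 without control library 3 (edgeR adjusted p = 0.0130) and -0.19 without control library 10 (0.819).

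The 3p strands of miR-138, the less abundant products of its hairpins, had the lowest fold changes among the members. MiR-138-2-3p stood at 19.8, 16.1 and 17.2 CPM in control cultures 3, 10 and 20 and at 14.0, 12.04 and 11.9 CPM with picrotoxin. The groups did not overlap, and the level was 1.40-fold lower (log2 fold change -0.49 ± 0.153). Its edgeR adjusted p was 0.206 by group alone and 0.108 with the block, and 0.0479 with the block and robust estimates. These are small counts, from 91 (95% exact Poisson interval 73.3 to 112) to 217 (189 to 248).

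MiR-138-1-3p stood at 27.4, 20.6 and 21.7 CPM in control and at 16.1, 20.2 and 17.7 CPM with picrotoxin. Groups did not overlap, but cultures differed, by -0.77, -0.02 and -0.30 in log2. The log2 fold change was -0.37 ± 0.158 (edgeR adjusted p = 0.486, and 0.271 with the block).

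MiR-138-5p, the strand that acts on Lypla1, stood at 2380, 2783 and 2640 CPM in control and at 2048, 2350 and 2393 CPM with picrotoxin. Each culture was lower with picrotoxin, by -0.22, -0.24 and -0.14, but control culture 3 fell between the picrotoxin values. The log2 fold change was -0.20 ± 0.095 (edgeR adjusted p = 0.521, and 0.180 with the block).

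MiR-137-3p stood at 3450, 3770 and 3434 CPM in control and at 2862, 3298 and 3142 CPM with picrotoxin, without overlap. The log2 fold change was -0.20 ± 0.088 (edgeR adjusted p = 0.504, and 0.188 with the block), and the cultures differed by -0.27, -0.19 and -0.13. Its partner miR-137-5p, at 19.6, 29.9 and 33.4 CPM in control and 28.5, 30.4 and 26.4 CPM with picrotoxin, was higher in culture 3 and lower in culture 20 (log2 fold change 0.04 ± 0.183, edgeR adjusted p = 0.957).

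MiR-218a-5p, the most abundant member, stood at 21659, 22835 and 27730 CPM in control and at 20327, 25702 and 28471 CPM with picrotoxin. Culture 20 was the highest and culture 3 the lowest in both groups, and the groups overlapped. The log2 fold change was 0.04 ± 0.132 by group alone and 0.04 ± 0.074 with the block (edgeR adjusted p = 0.952 and 0.840). Its partner miR-218a-2-3p stood at 17.2, 21.9 and 20.3 CPM in control and 14.1, 15.4 and 18.1 CPM with picrotoxin. The groups overlapped, and the log2 fold change was -0.32 ± 0.158 (edgeR adjusted p = 0.541, and 0.271 with the block).

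**Figure D2:**
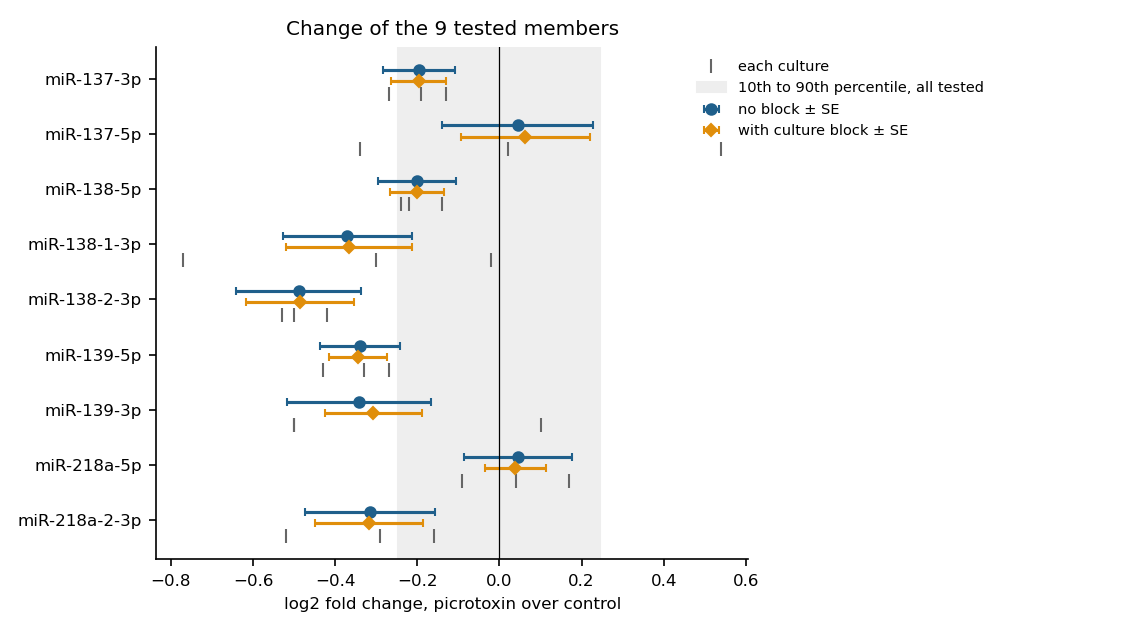
Log2 fold change of the 9 tested members, picrotoxin over control, by treatment group alone (circles) and with the culture block (diamonds), each ± SE; ticks are the 3 cultures, of which 2 coincide for miR-139-3p. The grey band spans the 10th to the 90th percentile of all 437 tested microRNAs, -0.25 to 0.25, and miR-138-2-3p lies farthest below it.

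The scaling moves these values together. With library totals in place of TMM, the median of all tested microRNAs shifted to -0.09, and miR-218a-5p and miR-137-5p changed sign, to -0.03 and -0.01. With the block and library totals, an alternative chosen after seeing the data, 5 of the 9 members passed, all lower: miR-137-3p, miR-138-5p, miR-138-2-3p, miR-139-5p and miR-139-3p. In that fit 7.32% of the tested microRNAs passed, 4.81% lower and 2.52% higher, and the block alone gave miR-139-5p only.

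Ratios within a library do not depend on scaling, so 6 ratios between members were compared. For 3 libraries against 3 the smallest exact two-sided permutation p is 0.10, and for 3 pairs it is 0.25. The ratio of miR-218a-5p to miR-218a-2-3p was 1250, 1040 and 1370 in control cultures 3, 10 and 20. It was 1440, 1670 and 1570 with picrotoxin, above every control value, and higher in all 3 cultures. In log2 this was 10.24 ± 0.20 against 10.60 ± 0.11 (SD, n = 3), a difference of 0.36 with an exact permutation p of 0.10 (adjusted over 6 ratios, 0.60), the smallest the design allows.

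The ratio of miR-138-5p to miR-138-2-3p was 120, 172 and 153 in control and 146, 194 and 200 with picrotoxin. It was higher in all 3 cultures, but the groups overlapped (log2 difference 0.28, exact permutation p = 0.30). The other 4 ratios overlapped between groups, with exact permutation p from 0.30 to 1.0. Among them, miR-139-5p over miR-139-3p was 6.41, 3.96 and 4.36 in control and 4.43, 4.65 and 4.93 with picrotoxin. The 3p strand of Mir138-1 exceeded that of Mir138-2 in all 6 libraries, by 1.15-fold to 1.68-fold.

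**Figure D3:**
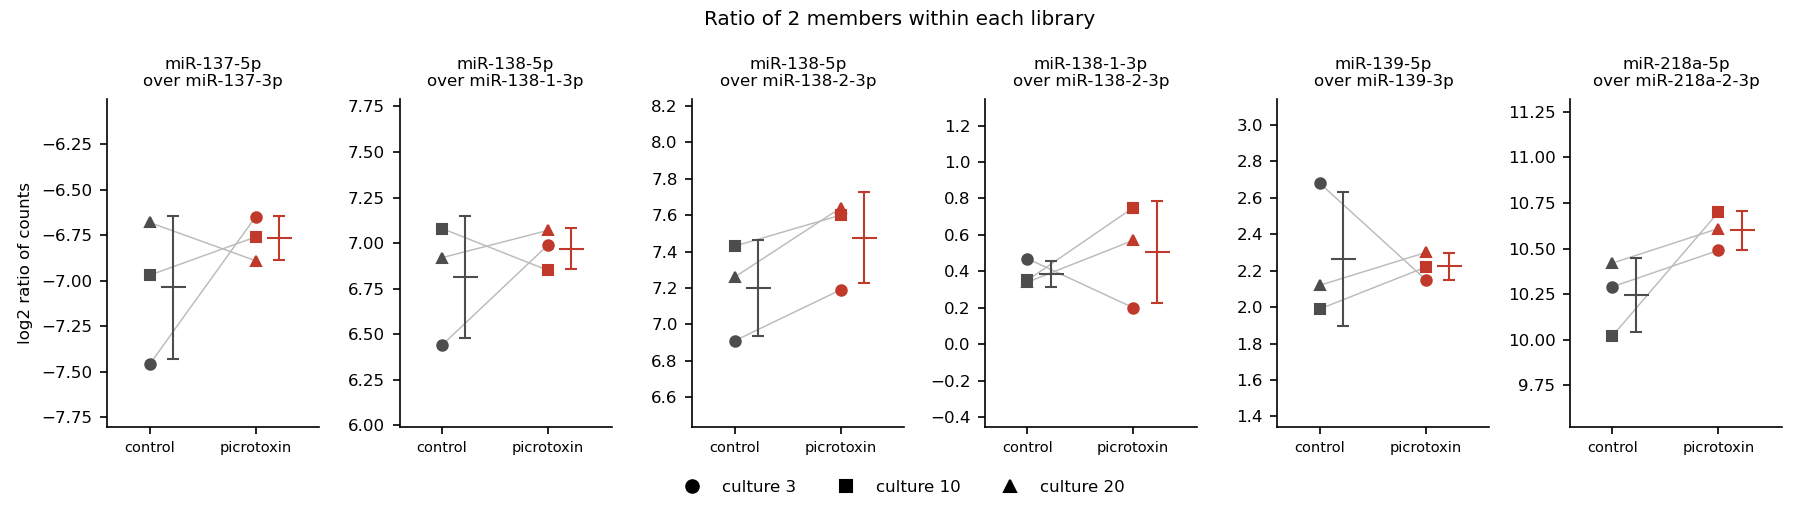
Log2 ratio of counts of 2 members within each library, for control and picrotoxin cultures; axes do not start at 0 and differ in position between panels. Points are libraries, lines join cultures and bars are the mean ± SD (n = 3). The groups are separate for miR-218a-5p over miR-218a-2-3p and overlap in the other 5 panels.

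The host genes were read from the polyA libraries as scaled fragment counts, which the authors had divided by a size factor per library. They were tested with limma on log2(value + 1), on which scale their fold changes are given. Pde2a mRNA stood at 5026, 5324 and 5140 in control cultures 3, 10 and 20 and at 3524, 3653 and 3017 with picrotoxin. All picrotoxin libraries lay below all control libraries, with means of 5163 ± 150 and 3398 ± 336 (SD, n = 3). It fell by 0.61 ± 0.088 on the log2 scale (limma adjusted p = 0.00886, and 3.23e-06 with the block). Without control library 10 the limma adjusted p was 0.0730, and without trend and robust estimates it was 0.0514. Of the 3 host genes 1 fell and 0 rose, beside 3.29% of 12046 mRNAs that passed (1.67% higher and 1.62% lower). With the block 2 fell, beside 20.0% (9.65% higher and 10.4% lower). Pde2a and miR-139-5p were thus both lower with picrotoxin in each culture. The other strand of that hairpin, miR-139-3p, was lower in cultures 10 and 20 but not in culture 3.

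Slit3, the ligand gene that holds Mir218-2, stood at 1091, 1005 and 1108 in control and at 839, 816 and 893 with picrotoxin, without overlap; 11.8% of the tested mRNAs were separate and lower in this way. Its log2 fold change was -0.33 ± 0.088 (limma adjusted p = 0.0762, and 0.00160 with the block). With 1 library left out, its limma adjusted p ran from 0.0285, without picrotoxin library 20, to 0.236. Slit2, around Mir218-1, stood at 1581, 1654 and 1788 in control and at 1659, 1622 and 2404 with picrotoxin, where culture 20 stood apart (log2 fold change 0.16 ± 0.143, limma adjusted p = 0.653). MiR-218a-5p, which both loci make, had a log2 fold change of 0.04. For miR-218a-2-3p, which only the Slit3 locus makes, it was -0.32, but the groups overlapped. It did not pass (edgeR adjusted p = 0.541, and 0.271 with the block). The 3p strand of the Slit2 locus had too few counts to compare. Slc12a3, around Mir138-2 and looked up after the data were seen, was low, with 2.70 to 9.54 scaled fragments and an FPKM of 0.137 in control and 0.109 with picrotoxin in the authors' deposited table.

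**Figure D4:**
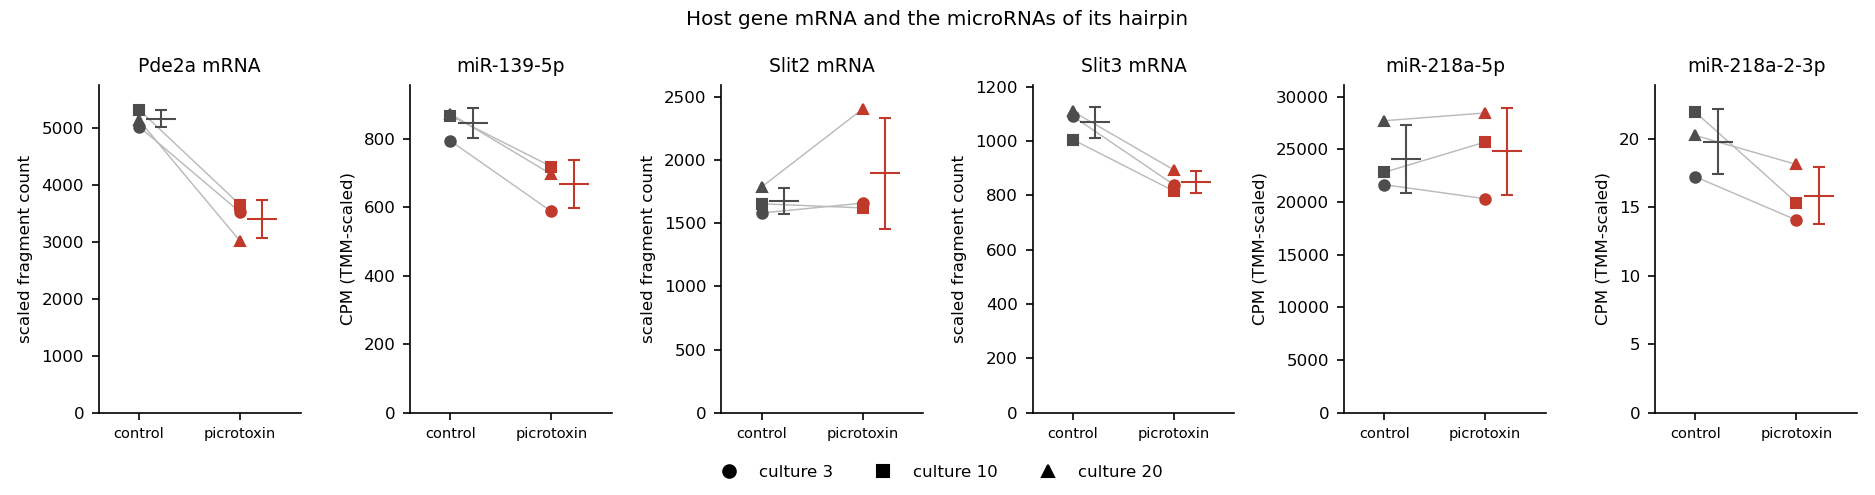
Host mRNA (scaled fragment counts) beside microRNAs of its hairpin (TMM-scaled CPM), for control and picrotoxin cultures, on linear axes from 0. The other strand of the Pde2a hairpin, miR-139-3p, and miR-218a-1-3p are not drawn. Points are libraries, lines join cultures and bars are the mean ± SD (n = 3). Pde2a and Slit3 are lower in all 3 picrotoxin libraries than in every control library. The groups overlap for Slit2, miR-218a-5p and miR-218a-2-3p.

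Genes that have been reported as targets were followed from lists drawn from general knowledge. Of 40 tested host and target genes, 0 rose and 2 fell by group alone, Pde2a and Gria1. Their median log2 fold change was -0.10, against -0.01 over all tested mRNAs. With the block 2 rose and 12 fell, in a fit that called 9.65% of all tested mRNAs higher and 10.4% lower, against 1.67% and 1.62% by group alone. Pde2a and Slit3 were among the falls.

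Of 11 tested targets of miR-137, 1 fell. Gria1, the GluA1 subunit of AMPA receptors, stood at 4232, 4685 and 5050 in control and at 3444, 3705 and 3466 with picrotoxin, without overlap. It fell by 0.39 ± 0.085 on the log2 scale (limma adjusted p = 0.0375, and 0.000252 with the block). The limma adjusted p was 0.191 without control library 10, 0.127 without control library 20, 0.131 without picrotoxin library 3 and 0.0779 without picrotoxin library 10. It was 0.0537 with quantile scaling and 0.119 without trend and robust estimates. With the block 5 of the 11 fell, beside 10.4% of all tested mRNAs. Apart from Gria1 these were Mib1, Nsf, Syt1 and Cacna1c, of which Nsf and Syt1 act in vesicle fusion. They are named here after their values were seen. Syt1 also stands among the 5 neuron markers, of which Tubb3 and Rbfox3 fell with the block too, while Map2 and Snap25 did not pass. The median of the 11 was -0.16.

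None of the 7 tested targets of miR-138 passed in either fit, and their median was 0.00. Lypla1 stood at 1244, 1407 and 1176 in control and at 1319, 1432 and 1098 with picrotoxin, with overlap (log2 fold change 0.00 ± 0.117, limma adjusted p = 0.992). Hif1a, the oxygen-sensing transcription factor, stood at 2135, 2089 and 2284 in control and at 2043, 1959 and 1949 with picrotoxin, without overlap (-0.13 ± 0.078, limma adjusted p = 0.455).

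None of the 5 tested targets of miR-139 passed by group alone, with a median of -0.21. Rock2, a kinase of the actin cytoskeleton, stood at 3223, 3169 and 2999 in control and at 2757, 2075 and 2790 with picrotoxin, without overlap (-0.31 ± 0.115, limma adjusted p = 0.188, and 0.0129 with the block). Fos, the activity-induced transcription factor, stood at 1255, 1670 and 2305 in control and at 1439, 1866 and 2614 with picrotoxin. Fos was higher with picrotoxin in each culture, but the cultures differed more than the groups (0.18 ± 0.240, limma adjusted p = 0.778, and 0.0476 with the block).

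None of the 14 tested targets of miR-218 passed by group alone, and their median was -0.07. With the block 1 rose and 4 fell, beside 9.65% higher and 10.4% lower among all tested mRNAs. Gria2, the AMPA receptor subunit that limits calcium entry, stood at 20098, 19950 and 18666 in control and at 17703, 14011 and 14360 with picrotoxin, without overlap (-0.36 ± 0.094, limma adjusted p = 0.0726, and 0.000783 with the block). With 1 library left out, its limma adjusted p ran from 0.0373, without picrotoxin library 3, to 0.281.

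The Slit receptors in that list, named here after their values were seen, went in opposite directions with the block. Robo1 stood at 876, 893 and 997 in control and at 669, 665 and 774 with picrotoxin, without overlap (-0.39 ± 0.101, limma adjusted p = 0.0674, and 0.000457 with the block). With 1 library left out, its limma adjusted p ran from 0.0124, without picrotoxin library 20, to 0.238. Robo2 stood at 1774, 1968 and 2467 in control and at 2451, 2446 and 3782 with picrotoxin, where control culture 20 lay among the picrotoxin values (0.47 ± 0.177, limma adjusted p = 0.202, and 7.2e-05 with the block).

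Beside the members, 61 other listed microRNAs carried numbers reported in dendrites or to act on dendrites and spines. Of 55 tested, 1 rose and 0 fell by group alone, and 2 rose with the block, near the shares of all tested microRNAs that were higher, 1.14% and 2.52%. The median log2 fold change was 0.01, and 26 were lower. The one that rose was miR-132-3p, the activity-induced microRNA. It stood at 4238, 4365 and 4442 CPM in control and at 5437, 5750 and 6020 CPM with picrotoxin, without overlap (0.40 ± 0.081, edgeR adjusted p = 0.0428, and 0.00910 with the block). By group alone none of the 55 passed as higher with library totals, with DESeq2 size factors, or without control library 3 or 10 or any 1 of the picrotoxin libraries.

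As a description over 6 libraries that share depth and scaling, the microRNAs whose log2 CPM was most like each main strand were listed by Pearson correlation. For miR-139-5p these were miR-221-5p (r = 0.973), miR-127-3p (0.931) and miR-127-5p (0.930). MiR-221-5p was also the most like miR-138-5p (r = 0.937), ahead of miR-151-5p (0.917) and miR-326-3p (0.897), and it had a log2 fold change of -0.44. For miR-137-3p they were miR-106b-3p (r = 0.967), miR-136-5p (0.928) and miR-379-5p (0.926). For miR-218a-5p they were miR-425-5p (r = 0.954), miR-9a-5p (0.930) and miR-708-3p (0.920).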

How the data were processed

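The authors deposited raw counts per mature microRNA; the tool and annotation behind them are not given in the sources used here. The tools listed for the polyA data, per the submitters' processing notes, are bedtools 2.22.1, Cuffnorm, Cuffdiff, STAR 2.3.1z12 and Cufflinks 2.2.1; no build is named. The gene table that the authors deposited holds a signal, fragment counts divided by a size factor per library. Of the low values above 0, the only ones checked, 99.9% or more were whole multiples, within 0.1, of 1 step. The authors' comparison table gives group FPKM, log2 fold changes, p-values and q-values; only its FPKM was used, for the filter and for abundance. The authors' table of transcript end lengths and the ribosome-depleted libraries were not used here.

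In R 4.3.3, edgeR 4.0.16 tested the microRNA counts that filterByExpr kept, by quasi-likelihood after TMM scaling. The standard error was taken from the F statistic. For mRNAs limma 3.58.1 (trend and robust) was run on log2(value + 1) of the 12046 genes that reached an FPKM of 1 in either group. Normalized values per library had been expected, and this filter had been planned in case they were scaled counts. Both tests were two-sided, adjusted over all features tested, with a threshold of 0.05. DESeq2 1.42.0, voom, other scalings, filters and pseudocounts, and the omission of each library were alternatives. Ratios used counts + 0.5 and exact permutation tests, where both sides averaged 10 counts or more. Intervals cover counting error only. The edgeR and limma p-values rest on the spread between these replicates, moderated over all tested features.

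The numbers 3, 10 and 20 are in the labels, and same-numbered libraries deviated together from their group means (correlations of 0.369, 0.124 and 0.397 for small RNA, 0.405, 0.391 and 0.547 for polyA RNA). For culture 10 of the small RNA this was weak. Libraries of different numbers correlated at -0.37 to 0.032 for small RNA and at -0.368 to 0.055 for polyA RNA. These lower values are not separate evidence. Deviations from a group mean cancel out within the group, so positive same-number correlations push the others down. The numbers were taken to pair the libraries. In a simulation of 437 microRNAs, 99 were changed by 0.5 and 100 by 1 in log2. There edgeR recovered 63.6% and 98.0% of these changes, with 3 false calls among the unchanged. In the data 5 of 437 passed, a far smaller share than was changed here, so these rates do not carry over. Of 12046 simulated mRNAs, 100 were changed by each size, and limma recovered 19.0% and 69.0%, with 4 false calls. Members, gene lists and tests were chosen with earlier results of these data known. Named were all members, the 3 host genes, up to 3 called genes of each list or else its 2 most abundant, and the 3 microRNAs most like each main strand; other genes are marked as named after their values were seen, and marker genes are named beside their sums. One gene that this rule names is withheld and not reported here.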

Additional observations from a re-analysis of the deposited data

How the results depend on the processing

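With the culture number as a replicate block, 11 microRNAs were higher and 2 lower, against 5 and 0 by group alone; other dendritic microRNAs gave 2 higher against 1, mRNAs 1162 higher and 1251 lower against 201 and 195, and host and target genes 2 higher and 12 lower against 0 and 2. The block gave miR-139-5p -0.34 (edgeR adjusted p = 0.0298).

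Settings chosen after seeing the data joined the block with robust estimates (13 microRNAs higher, 3 lower), library totals (11 and 21), DESeq2 size factors (11 and 2) or voom (10 and 2), each with 2 other dendritic microRNAs higher, and library totals with 2 lower. With them miR-139-5p stood at -0.344, -0.419, -0.338 and -0.344, all called. MiR-138-2-3p was called at -0.486 with robust estimates. Block and library totals called miR-138-2-3p (-0.563), miR-137-3p (-0.272), miR-138-5p (-0.276) and miR-139-3p (-0.381), and turned miR-137-5p (-0.009) and miR-218a-5p (-0.036). Without the block or robust estimates, library totals turned them to -0.013 and -0.030 and gave 2 microRNAs higher, 0 of them other dendritic ones. DESeq2 size factors gave 3 microRNAs higher, 0 of them other dendritic ones. DESeq2 gave 8 higher, 2 of them other dendritic ones, and 0 lower. No filter gave 2 other dendritic ones higher. Quantile scaling left 1 host or target gene lower, and limma without trend and robust estimates gave 94 mRNAs higher and 65 lower.

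Leaving out 1 library gave 1 to 7 microRNAs higher and 0 to 1 lower, and 0 to 1 other dendritic ones higher. With the block, leaving out cultures 10, 20 and 3 in turn gave 9, 8 and 26 higher and 0, 1 and 27 lower. Without culture 3, 5 other dendritic ones were higher and 3 lower, and miR-137-3p (-0.166), miR-138-5p (-0.199), miR-139-3p (-0.510) and miR-139-5p (-0.305) were called. Over both kinds of omission, log2 fold changes ran from -0.249 to -0.141 for miR-137-3p, -0.171 to 0.273 for miR-137-5p (-0.168 to 0.204 without the block), -0.549 to -0.170 for miR-138-1-3p, -0.565 to -0.411 for miR-138-2-3p, -0.271 to -0.133 for miR-138-5p, -0.565 to -0.186 for miR-139-3p, -0.402 to -0.256 for miR-139-5p, -0.428 to -0.236 for miR-218a-2-3p and -0.066 to 0.169 for miR-218a-5p. Ratio differences ran from 0.063 to 0.450 for the strands of miR-137, -0.027 to 0.291 and 0.135 to 0.425 for miR-138-5p over the 3p strands of Mir138-1 and Mir138-2, 0.002 to 0.273 between those, -0.180 to 0.167 for miR-139 and 0.248 to 0.446 for miR-218a. mRNAs gave 15 to 378 higher and 14 to 516 lower, host and target genes 0 higher and 0 to 6 lower. Slit2 ran from -0.028 to 0.256, Lypla1 from -0.080 to 0.111 and Fos from -0.045 to 0.403.

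The cause of these moves was not tested. Without culture 3, the block leaves 1 residual degree of freedom. Small counts limit the 3p strands of miR-138 and miR-218a, and 3 cultures a group limit all tests.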
